A study of Mus musculus with 257 samples.

Results

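The genes described here, across mouse cerebella and medulloblastomas, are Plac9a, Plac9b, Tmem254a, Tmem254b, Tmem254c, Dgkh, Catspere2, Mndal, Ifi203 and Msh5. They are 10 protein-coding genes of the 32075 in the count table, and all 10 were found by symbol. They were chosen by measured values, namely their calls next to each other when lines carrying engineered alleles were compared with WT, and were proposed as a mark of the mouse line and not of the deletion. Comparisons with WT are therefore given below as description, with no test. The proposed pattern, genes that are on in some mice and off in others, held for Mndal at 2 ages, and Ifi203 split the same libraries at P13. Dgkh and Msh5 were graded.

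The study measured RNA in mouse cerebellum and medulloblastoma with and without loss of Ddx3x, which encodes an RNA helicase and lies on the X chromosome, in cells expressing Blbp (Fabp7). Cerebella came from E16.5, P5, P13 and P30+, with 12 genotypes at each age and 3 to 5 libraries per group. BPtch P13 replicates 3 and 4 carry the age P14 in their titles. In the normal background the genotypes were WT and 3 lines with floxed Ddx3x, named BD-FLY (males with the floxed copy), BD-FL-FL (females with both copies floxed) and BD-FLPlus (females with 1 floxed copy). In the Wnt-model background BCP carries Ctnnb1 and Pik3ca alleles, and BDCP-FLY, BDCP-FLFL and BDCP-FLPlus add floxed Ddx3x. In the Shh-model background BPtch carries a Ptch1 allele, and BPtchD-FLY, BPtchD-FLFL and BPtchD-FLPlus add floxed Ddx3x. The letter B stands for Blbp-Cre in all of these names but WT, and BCP and BPtch have an intact Ddx3x. The 30 tumours were 5 BCP and 10 BDCP-FLY Wnt-model implants and, from the Shh model, 5 per genotype of BPtchD-FLPlus, BPtchD-FLY and BPtch. No label states a strain, a sequencing batch or the sex of the control animals.

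Library totals ran from 614465 to 92341867 counts (median 19719551). The summed level of 8 cerebellum markers was under 0.2 of the median of its age in 12 libraries labelled cerebellum, 11 at P5 (132 to 269 CPM, counts per 1000000 counts, against 436 to 2692 in the other 49) and WT P13 replicate 3 (145 CPM against 1508 to 5726 in the other 56). All E16.5 libraries held 416 to 923 CPM. Other libraries that stand apart were BPtchD-FLY P30+ replicate 1, which had the fewest counts, and the library labelled BPtchD-FLY P5 replicate 2, which held 1758 CPM of the female-specific Xist and 0.303 CPM of the Y-linked Ddx3y. Mki67, a gene of dividing cells, held 979 to 1334 CPM in BPtch P30+ replicates 3 to 5 and 0.951 to 1.78 CPM in the other 2, and ran from 1.32 to 1075 CPM over the 13 BPtchD P30+ libraries. Ddx3x counts cover the whole gene, and the labels do not say which exons are deleted. Ddx3x differed from the matched controls by -0.36 ± 0.06 in the BD lines, -0.14 ± 0.06 in the BDCP lines and -0.47 ± 0.09 in the BPtchD lines (log2 fold change ± standard error). It was -1.37 ± 0.19 in the Shh-model tumours, but -0.09 ± 0.14 (edgeR quasi-likelihood adjusted p = 0.610) in the implants labelled BDCP-FLY, where levels ran from 438 to 653 CPM against 345 to 595 in BCP.

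A gene-targeted mouse line carries, besides its engineered allele, stretches of chromosome from the strain in which that allele was made, and the genes in them are called passenger genes. The Ifi200 cluster on chromosome 1, to which Mndal and Ifi203 belong, encodes interferon-inducible DNA-binding proteins and differs in gene content between inbred strains. Duplicated genes such as Plac9 and Tmem254 also vary in copy number and are hard to tell apart by short reads.

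The members lie on chromosomes 1, 14 and 17 (GRCm38). None is on the chromosomes of the genes Ddx3x (X), Ptch1 (13), Ctnnb1 (9), Pik3ca (3) or Fabp7 (10). The labels do not give the insertion site of Blbp-Cre, so its distance from the members is not known. On the minus strand of chromosome 14 lie Plac9a (ENSMUSG00000095304, 25887506 to 25903100), Tmem254a (ENSMUSG00000072676, 25923300 to 25927672), Tmem254c (ENSMUSG00000072680, 26063919 to 26067355), Plac9b (ENSMUSG00000072674, 26167405 to 26182480) and Tmem254b (ENSMUSG00000021867, 26203369 to 26207041). Dgkh (ENSMUSG00000034731, 78558750 to 78732776, minus strand) is on the same chromosome but 52.4 Mb away. On chromosome 1, Mndal (ENSMUSG00000090272, 173849126 to 173942491) and Ifi203 (ENSMUSG00000039997, 173920407 to 173942672) overlap by 22085 bases on the minus strand, and Catspere2 (ENSMUSG00000091476, 177983423 to 178172704, plus strand) begins 4.04 Mb beyond Ifi203. Msh5 (ENSMUSG00000007035, 35028605 to 35046745, minus strand) is on chromosome 17.

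The sequences near the start sites show how alike the copies are. They come from RefSeq's promoter table on GRCm38.p6, in which all 10 members were found. The 100 bases shown for the Plac9 pair are identical, as are those of the 3 Tmem254 copies, and all 5 are on the minus strand.
Plac9a chr14:25902972-25903071: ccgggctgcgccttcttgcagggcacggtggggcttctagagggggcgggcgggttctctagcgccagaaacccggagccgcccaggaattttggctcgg
Plac9b chr14:26182352-26182451: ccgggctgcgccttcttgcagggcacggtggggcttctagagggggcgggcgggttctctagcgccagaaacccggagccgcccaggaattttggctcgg
Tmem254a chr14:25927723-25927822: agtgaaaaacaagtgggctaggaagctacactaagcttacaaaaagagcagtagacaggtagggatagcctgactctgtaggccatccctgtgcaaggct
Tmem254b chr14:26207092-26207191: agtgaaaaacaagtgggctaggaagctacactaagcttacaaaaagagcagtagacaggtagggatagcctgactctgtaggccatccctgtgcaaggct
Tmem254c chr14:26067476-26067575: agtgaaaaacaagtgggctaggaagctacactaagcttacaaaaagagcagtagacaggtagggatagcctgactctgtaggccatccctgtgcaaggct
The longest identical stretch of the 300-base windows was 222 bases for Plac9a and Plac9b, 300 for Tmem254a and Tmem254c and 284 for Tmem254a and Tmem254b.

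Mndal and Ifi203 moved together, and their sequences before the start site are shown for that reason. Both are on the minus strand, and capitals mark the motif GAAANNGAAA, a core of the interferon-stimulated response element.
Mndal chr1:173880189-173880288: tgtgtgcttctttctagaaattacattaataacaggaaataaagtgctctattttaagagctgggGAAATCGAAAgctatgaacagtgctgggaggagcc
Ifi203 chr1:173942493-173942592: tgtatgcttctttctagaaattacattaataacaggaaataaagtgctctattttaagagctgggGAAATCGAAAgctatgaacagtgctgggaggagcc
These stretches have 99 of 100 letters in common. The motif, searched on both strands, was in 1131 of 32851 windows of 300 bases (3.44%). Mndal had the motif in 2 of 2 windows and Ifi203 in 1 of 2, the one shown. The Mndal stretch lies before a RefSeq start site that is inside the gene span given above. The motif was in windows of Ifi205, Ifi206, Ifi207, Ifi208, Ifi211, Ifi213 and Ifi214 too, and in none of Aim2, Ifi202b, Ifi209 or the other members.

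Catspere2 has a near copy, Catspere1, on the same strand and chromosome, whose level followed it most closely. Capitals mark the letters that differ between the stretches, both on the plus strand.
Catspere2 chr1:177991268-177991367: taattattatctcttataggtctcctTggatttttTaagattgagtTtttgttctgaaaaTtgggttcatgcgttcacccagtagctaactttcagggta
Catspere1 chr1:177808301-177808400: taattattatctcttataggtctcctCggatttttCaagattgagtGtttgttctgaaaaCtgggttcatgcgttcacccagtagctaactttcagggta
They differ at 4 of 100 letters.

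Copies of this kind limit what the counts can say. Of all 50-base stretches of the annotated transcripts, 99.7% of those of Plac9a and 96.6% of Plac9b occur in another gene, as do 73.1% of Tmem254a and 100% of Tmem254b and Tmem254c. The shares were 19.6% for Mndal, 15.5% for Catspere2, 12.2% for Ifi203, 4.58% for Dgkh and 0% for Msh5. The counts of the copies were alike: Plac9b had a median of 99.1% of the counts of Plac9a over 172 libraries with at least 20 counts of Plac9a. Tmem254b had a median of 98.8% and Tmem254c 92.3% of the counts of Tmem254a, over 256 libraries. How reads that match several genes were counted is not given in the sources used here, so Plac9a and Tmem254a below stand for their groups.

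Mndal was either present or nearly absent at P13. Its 57 levels fell into 16 libraries at 0 to 0.556 CPM and 41 at 7.33 to 85.5 CPM, with nothing between, a 13.2-fold gap. Low and high below mean the sides of the widest gap between neighbouring levels. Every set of levels has a widest gap, however small. The WT cerebella held 0.176, 31.3, 0.0547, 0 and 0 CPM, so 4 of 5 were low and replicate 2 was high. BD-FLY held 0 CPM in replicate 2, the low one, and 44.5, 36.6 and 85.5 CPM in replicates 1, 4 and 5, with replicate 3 the lowest of its high libraries. All 5 BD-FL-FL (18.1 to 56.5 CPM) and all 4 BD-FLPlus libraries (28.9 to 52.3 CPM) were high, as were the 20 Shh-background cerebella.

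In the Wnt background each P13 genotype held both states of Mndal. BCP cerebella held 20.1, 0.44, 7.33, 0 and 0.156 CPM and BDCP-FLY cerebella 0.225, 0.152, 0.057, 10.4 and 13.3 CPM. BDCP-FLFL held 0, 0.421, 10.6, 0.133 and 21.9 CPM, and BDCP-FLPlus 0.221, 0.556 and 20.3 CPM. The low libraries numbered 3 of 5 in BCP, BDCP-FLY and BDCP-FLFL and 2 of 3 in BDCP-FLPlus, so 8 of 13 floxed libraries of this background were low. In the normal background 1 of 14 floxed libraries was low, against 4 of 5 WT, and no test was run on these counts. Without WT P13 replicate 3, 15 libraries were low and the gap was the same.

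**Figure D1:**
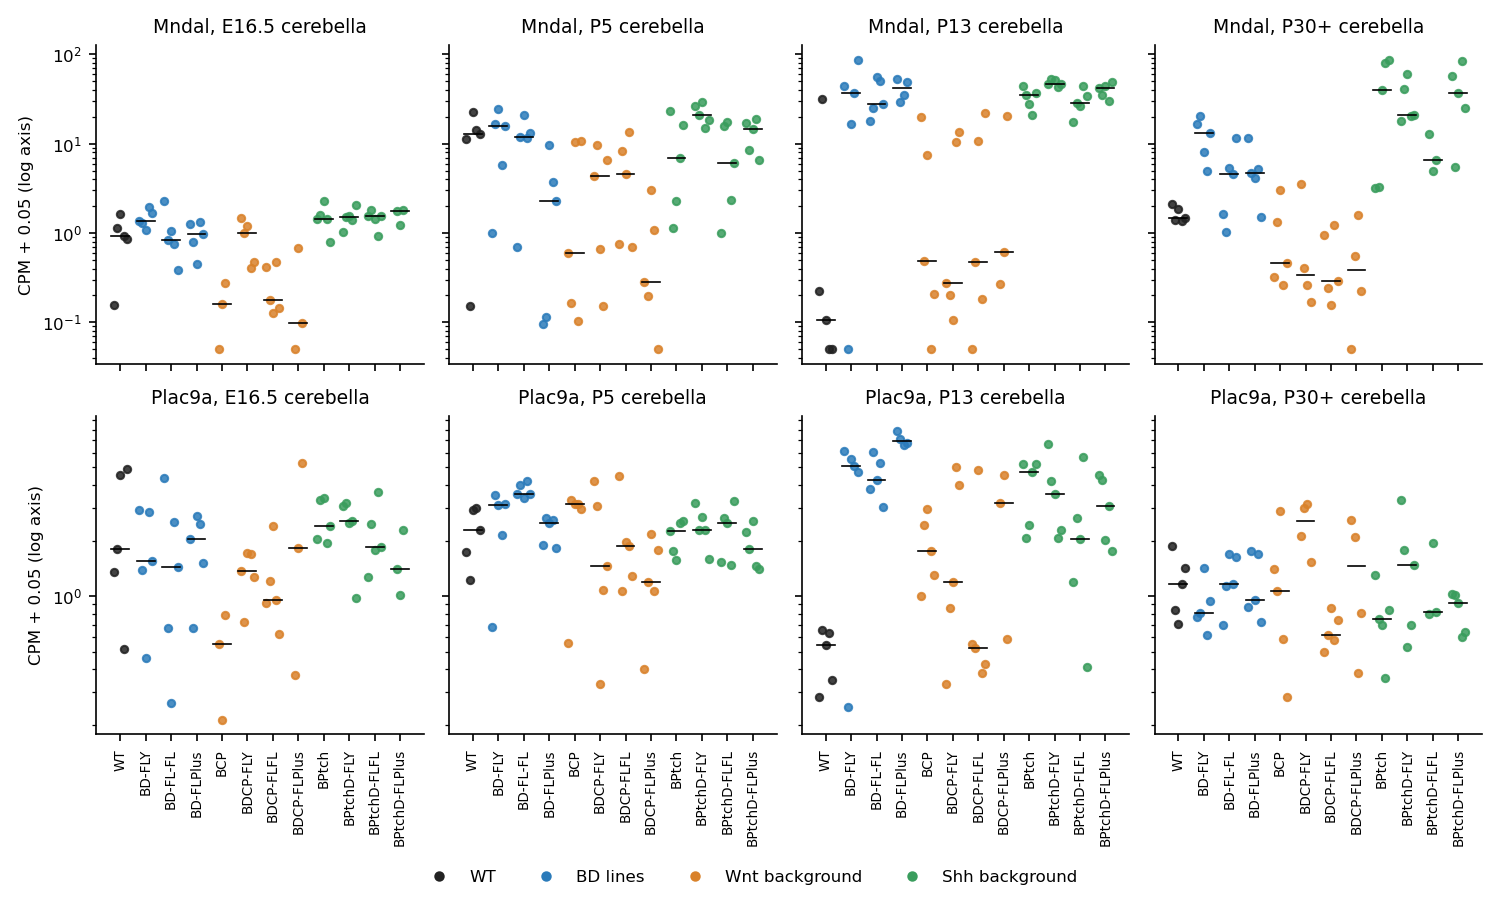
CPM of Mndal (upper row) and Plac9a (lower row) in every cerebellum by genotype and age, drawn as CPM + 0.05 on a log axis, with 1 point per library and a bar at the group median. At P13, Mndal splits into 16 libraries up to 0.556 CPM and 41 from 7.33 CPM, with both states within all 4 Wnt-background genotypes.

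The split of Mndal was also present at P5, once the libraries low in cerebellum markers were left out. Over all 60 P5 libraries the widest gap was 2.04-fold. Among the 49 others, 8 libraries held 0 to 0.235 CPM and 41 held at least 2.20 CPM, a 9.37-fold gap. The low libraries were 1 of 5 WT, 1 of 3 BD-FLPlus, 2 of 4 BCP, 1 of 4 BDCP-FLY and 3 of 4 BDCP-FLPlus, and none was in the Shh background. The 11 libraries low in cerebellum markers held 0.0631 to 2.24 CPM of Mndal (median 0.706). Their part in the P5 levels was not tested beyond leaving them out.

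WT differed from itself between ages. At P5 the WT cerebella held 11.3, 0.103, 22.5, 14 and 12.7 CPM of Mndal, so 4 of 5 were high, the reverse of P13. At E16.5 Mndal ran from 0 to 2.25 CPM in all genotypes (median 1.02, 54 libraries), and 2 of 54 were at 0. At P30+ the WT levels were 1.31 to 2.08 CPM. The 18 Wnt-background cerebella at P30+ held 0 to 3.5 CPM, while the other floxed lines of the normal background ran from 0.969 to 20.6 CPM and overlapped WT.

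Ifi203, whose gene overlaps that of Mndal and which encodes another protein of the same family, had the same split at P13. The 16 low libraries were the same as for Mndal and held up to 7.35 CPM, against 14.3 CPM or more in the 41 others. This gap was 1.94-fold. WT held 1.35, 34.6, 2.08, 1.22 and 1.46 CPM, so replicate 2 was again the high one. Ifi203 was thus never as near 0 as Mndal. Where the counting splits reads between these overlapping genes is not stated, so neither level is certain on its own.

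Catspere2, a copy of an accessory subunit gene of the sperm calcium channel CatSper, ran opposite to Mndal. At P13, 32 cerebella held 0.996 to 2.09 CPM and 25 held 2.80 to 10.4 CPM. The gap between them was only 1.34-fold, and no library was low for both genes. WT held 3.23, 5.74, 7.44, 5.99 and 5.43 CPM. All 18 Wnt-background cerebella were on the high side. BD-FLY held 1.58, 4.56, 1.81, 1.68 and 1.97 CPM, and the high one, replicate 2, was the library with no Mndal count. In the Shh background, 19 of 20 cerebella were on the low side and BPtchD-FLY replicate 5 was at 2.80 CPM.

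**Figure D2:**
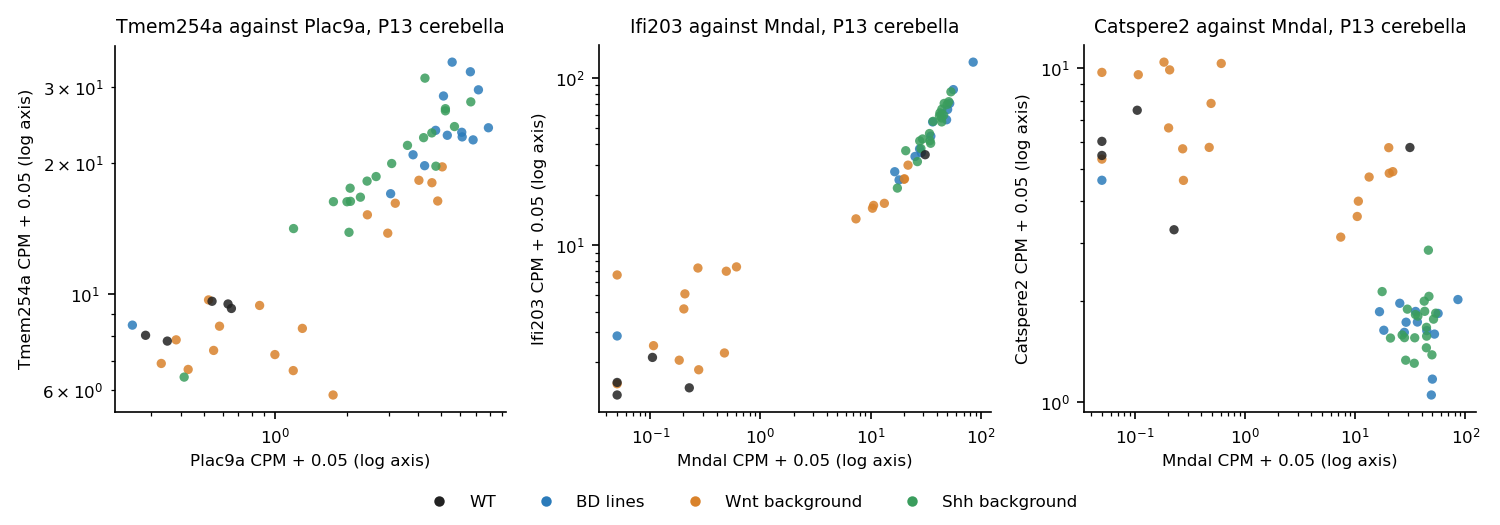
CPM of pairs of members in the 57 P13 cerebella, 1 point per library, on log axes, for Tmem254a against Plac9a, Ifi203 against Mndal and Catspere2 against Mndal. The 16 libraries low in Mndal are also the lowest in Ifi203, and none of them is among the 32 that are low in Catspere2.

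The chromosome 14 group, Plac9 (small secreted proteins) and Tmem254 (membrane proteins of unclear role), varied by less. At P13, Plac9a was at or under 1.25 CPM in 18 cerebella and at or above 1.70 CPM in 39. Tmem254a was at or under 9.64 CPM in 18 and at or above 13.7 CPM in 39. These gaps were only 1.36-fold for Plac9a and 1.43-fold for Tmem254a, so the sides are not on and off states. All 3 Tmem254 copies put the same 18 libraries on the low side, and 17 of these were also low in Plac9a. Only 13 of the 18 were low in Mndal, so the 2 loci did not have the same libraries on the low side. WT held 0.235, 0.604, 0.492, 0.583 and 0.302 CPM of Plac9a, and all 5 were low.

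Outside WT, the low side of Plac9a at P13 held BD-FLY replicate 2 (0.201 CPM, against 4.67 to 6.06 in the other 4), 10 of 18 Wnt-background and 2 of 20 Shh-background cerebella. BCP cerebella held 0.946, 2.39, 2.92, 1.70 and 1.25 CPM, and BDCP-FLFL cerebella 0.5, 0.474, 4.77, 0.333 and 0.38 CPM. These ranges overlapped. The low level in WT was not kept at other ages. WT held 1.18 to 2.97 CPM of Plac9a at P5 and 0.464 to 4.85 CPM at E16.5, each inside the range of the other genotypes of its age (0.283 to 4.43 and 0.162 to 5.24 CPM).

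WT P5 replicate 2 stood apart from the other WT cerebella of its age in the chromosome 14 group, Catspere2 and Mndal. It held 9.69 CPM of Tmem254a against 17.1 to 25.7 in the other 4, 1.18 CPM of Plac9a, the lowest of the 5 but above every P13 WT cerebellum, 4.46 CPM of Catspere2 against 0.958 to 1.83, and 0.103 CPM of Mndal. Dgkh stood at 4.20 CPM, the lowest of the 5, and Msh5 at 9.89 CPM, the highest. This library was described after its values were seen, and its cerebellum markers summed to 1340 CPM.

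At E16.5, Tmem254a differed between backgrounds and between litters, and no test was run on these levels. The 16 Wnt-background cerebella ran from 4.70 to 15 CPM, those of the normal background from 11.1 CPM up and those of the Shh background from 14.5 CPM up. Litters, read from shared animal numbers, cross the backgrounds in part: in litter F a BD-FL-FL embryo, the lowest of the normal background, was among BDCP embryos at 10.3 to 13.7 CPM, and in litter B a WT embryo at 14.3 CPM was among BDCP embryos at 9.11 to 15 CPM. The litters of normal-background embryos alone (C, E, G and L) held 17.5 CPM or more. Plac9a at E16.5 moved with the marker sums of other cell types (Spearman rho 0.76 with meningeal fibroblast, 0.78 with microglia markers, 54 libraries). At P13 its rho with fibroblast markers was 0.13, and that of Tmem254a 0.03, over 57 libraries. In bulk tissue, fewer cells of a type and less RNA per cell cannot be told apart.

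Dgkh, diacylglycerol kinase eta, turns the lipid messenger diacylglycerol into phosphatidic acid. WT had the lowest median of the 12 genotypes at E16.5 and P13, with graded levels. At P13 the WT cerebella held 7.34, 7.70, 2.19, 10.2 and 7.39 CPM, against 9.72 to 43.7 CPM (median 20.3) in the 52 others, so WT replicate 4 overlapped them. At E16.5 WT held 1.39 to 2.92 CPM. BPtch held 2.88, 3.57, 1.98, 3.15 and 2.00 CPM and overlapped WT, while every embryo with floxed Ddx3x in the Shh background was above both (3.63 to 26.7 CPM, median 9.16, 13 embryos). At P5 and P30+ WT lay inside the range of the other genotypes (4.20 to 8.48 CPM at P5 and 9.83 to 19.7 CPM at P30+).

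The E16.5 labels give animal numbers that several embryos share, read here as litters, and these put WT and floxed embryos side by side. The 12 litters held 50 of 54 embryos, and 4 litters held WT. Dgkh was below all littermates in WT in 4 of 4 litters: 2.92 against 8.11 to 29.7 CPM in litter B, 1.5 to 2.18 against 5.20 to 12.7 CPM in litter C, 1.39 against 3.13 to 13.8 CPM in litter E and 1.92 against 3.54 to 7.71 CPM in litter G. Mndal, Plac9a and Msh5 were lowest in WT in 1 of 4 litters each and Catspere2 in 0 of 4. Litters B, E and G held 1 WT embryo each. The members were chosen by calls against WT, so these counts are description and no separate support. WT held 0.104 CPM of Mndal in litter B, where the others ran from 0.128 to 1.42 CPM. All 5 BPtch embryos came from 1 litter, so for them litter and genotype cannot be told apart.

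**Figure D3:**
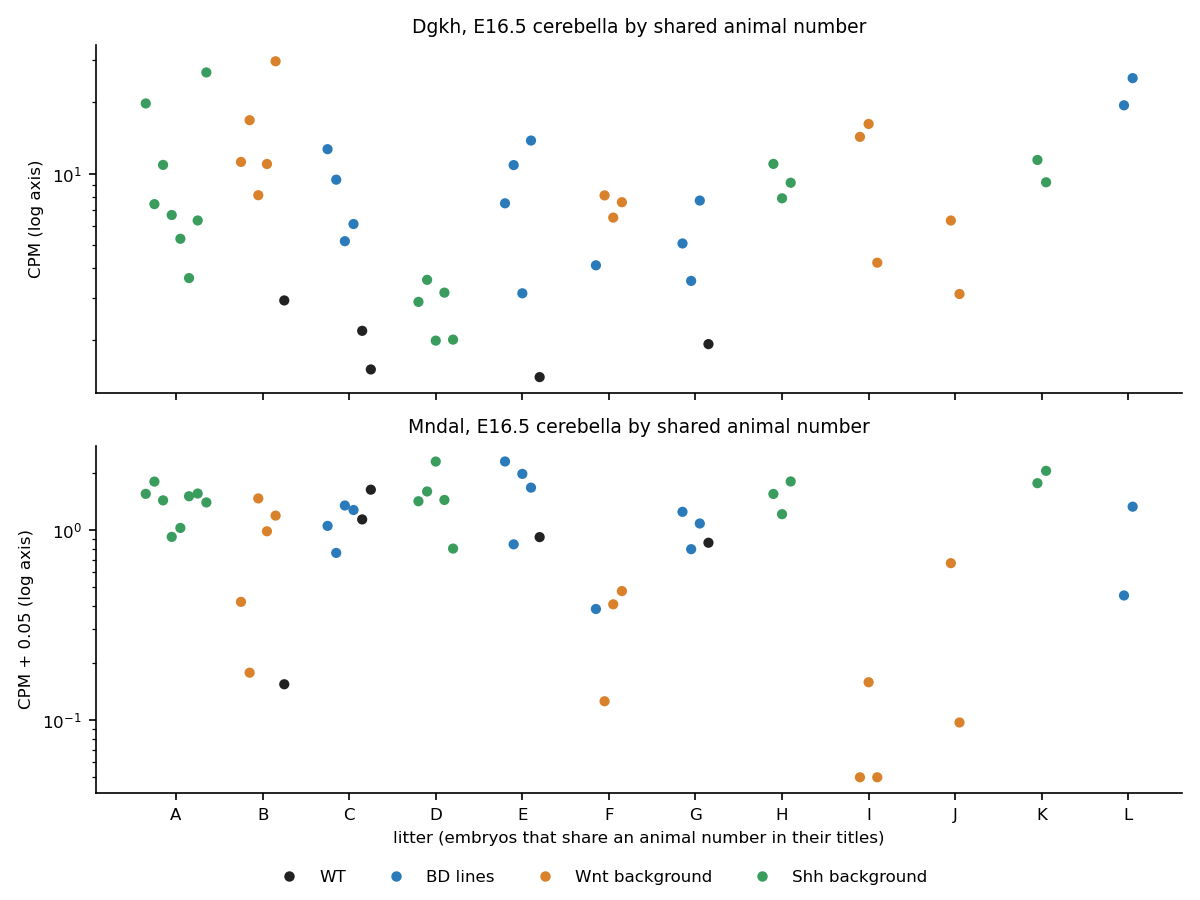
CPM of Dgkh and Mndal in the E16.5 cerebella by litter (A to L), 1 point per embryo. WT embryos have the lowest Dgkh level of their litter in B, C, E and G, and the lowest Mndal level in 1 of these.

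Msh5, a MutS homologue that acts with Msh4 in meiotic recombination, showed no split. At P13 it ran from 0.273 to 8.52 CPM over 57 libraries, and the lowest was WT replicate 3, the library low in cerebellum markers. The other WT levels were 2.47, 5.18, 4.03 and 4.07 CPM, inside the range of the other genotypes. Msh5 fell with the mitochondrial share of counts (Spearman rho -0.59 at P13 and -0.60 at E16.5), and its part in the levels was not tested. At P5 it was 0.843 to 2.59 CPM in the 11 libraries low in cerebellum markers, where the median of all 60 was 3.89 CPM.

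Titles of the postnatal libraries hold a number whose meaning the labels do not give, and libraries with close numbers had like levels at P13 even where the genotype differed. Numbers within 10 of each other formed 12 runs with more than 1 genotype, of 38 P13 libraries in all, a rule chosen after the values were seen. In 1 run BD-FLY replicate 2, BCP replicate 1 and WT replicate 4 held 0.201, 0.946 and 0.583 CPM of Plac9a and 8.43, 7.20 and 9.43 CPM of Tmem254a. Another joined WT replicate 1 with 2 BDCP-FLFL and 2 BDCP-FLY cerebella, at 0.235 to 1.14 CPM of Plac9a. A run of 5 BD cerebella and BPtch replicate 2 held 2.01 to 7.83 CPM. BD-FL-FL P30+ replicate 5 has the same number as this BPtch library, and some P30+ cerebella have the number of E16.5 embryos. A number is thus not particular to 1 library, and close numbers need not mean a shared origin. An exception was a run in which BDCP-FLFL replicates 1 and 2 were low (0.5 and 0.474 CPM) and BDCP-FLPlus replicate 1 was not (3.15 CPM).

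Counted as pairs, P13 libraries of different genotype with close numbers were on the same side of the Plac9a gap in 39 of 41 pairs (95.1%), against 813 of 1487 (54.7%) of all pairs of different genotype. For Catspere2 the counts were 40 of 41 (97.6%) and 695 of 1487 (46.7%), and for Mndal 33 of 41 (80.5%) and 859 of 1487 (57.8%). Pairs of the same genotype were alike in 81 of 109 for Plac9a (74.3%). Within 1 background the Plac9a counts were 26 of 28 (92.9%) with close numbers and 239 of 405 (59.0%) over all. There the contrast was smaller for Catspere2, 27 of 28 (96.4%) and 316 of 405 (78.0%). For Mndal the counts were 24 of 28 (85.7%) and 286 of 405 (70.6%). Pairs share libraries, so these shares carry no test, and close numbers and a shared origin or batch cannot be told apart.

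**Figure D4:**
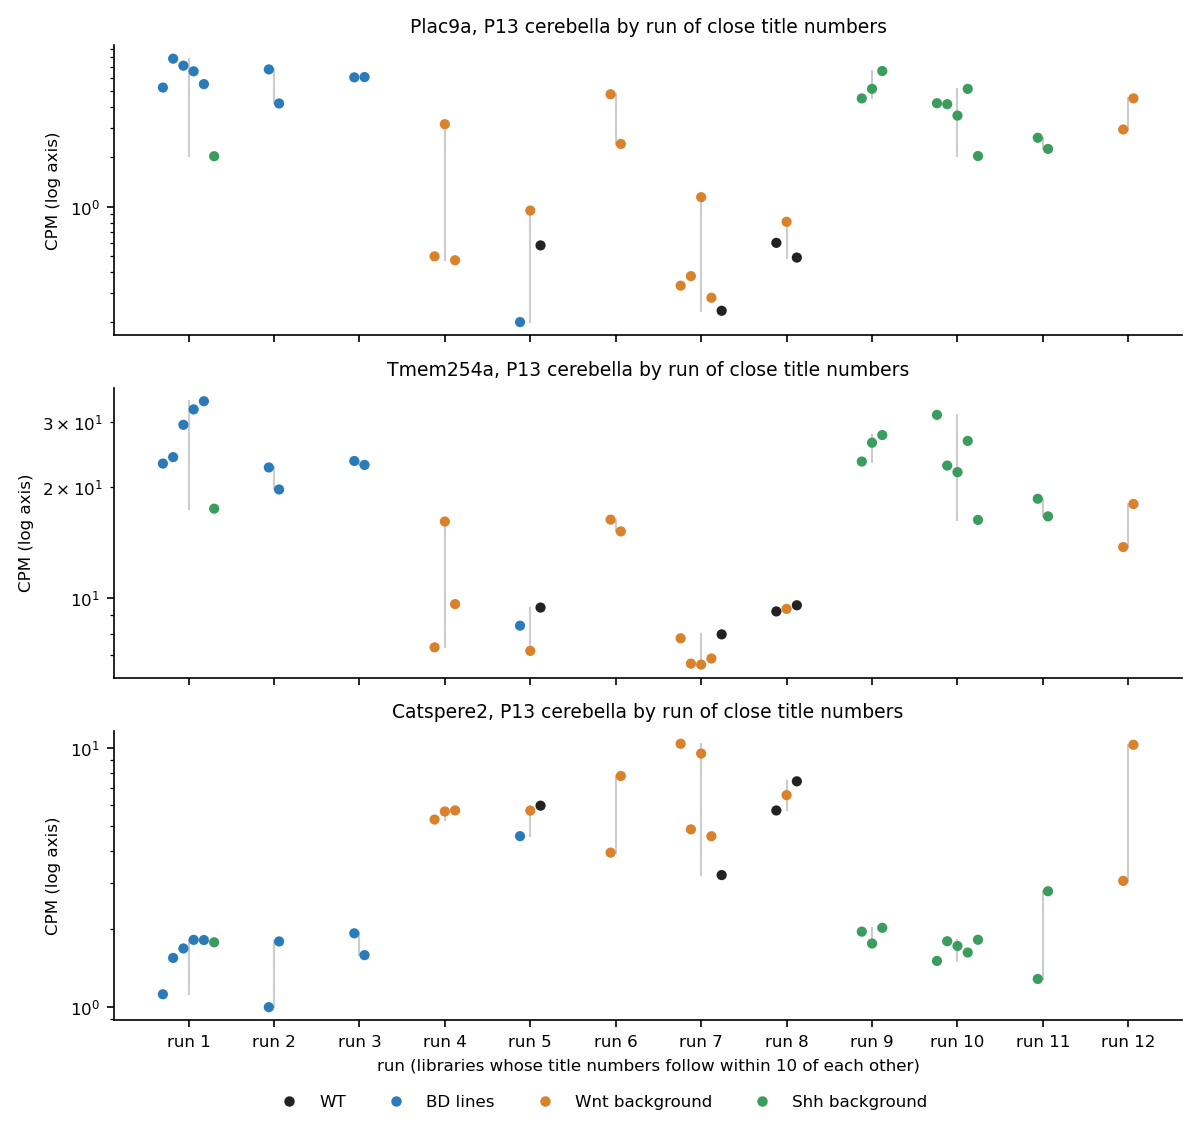
CPM of Plac9a, Tmem254a and Catspere2 on a log axis in 38 P13 cerebella, grouped into the 12 runs with more than 1 genotype of libraries whose title numbers lie within 10 of each other, with a grey line over the range of each run. WT libraries are in runs 5, 7 and 8, whose other members are also low in Plac9a and Tmem254a and high in Catspere2.

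Over the 4 ages, comparisons with WT used by the choice of members read as follows, as description only. The BD lines called 2 of 10 members, where 2.4% of all genes were called: Dgkh at +1.18 ± 0.19 and Catspere2 at -0.68 ± 0.17. BCP called 4 of 10, where 16.1% of all genes were called, with Dgkh at +1.72 ± 0.18, Catspere2 at +0.67 ± 0.17, Tmem254a at -0.67 ± 0.18 and Tmem254c at -0.67 ± 0.20. BPtch called 1 of 10, where 6.37% of all genes were called, the fall of Catspere2. Catspere2 was thus below WT in the BD lines and BPtch and above WT in BCP. These 3 comparisons share the WT libraries.

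Catspere1 moved the same way as its copy, at -1.70 in the BD lines, +1.09 in BCP and -3.64 in BPtch (log2 fold change against WT). It was among 12 listed CatSper genes, of which 11 were in the table. Of 14 listed interferon-response genes, which respond to the same cytokines as the Ifi200 family, 0 passed in the BD lines, 1 was higher in BCP and 6 were higher in BPtch. Of the Ifi200 genes tested, 1 of 8 was higher in the BD lines (Ifi204, +1.09) and 2 of 8 in BPtch (Ifi204, +1.75, and Ifi211, +1.90). Of 3 tested neighbours of Dgkh within 500 kb, 1 was higher in the BD lines, 2 in BCP and 0 in BPtch. Of 10 diacylglycerol kinase genes, Dgkh included, 2, 3 and 0 were higher. Of all genes, 2.4%, 16.1% and 6.37% were called in these comparisons.

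The comparisons of floxed lines with the matched control of the same background do not use WT and were tested. Their BCP and BPtch libraries are also in the comparisons with WT used by the choice of members. These tests in cerebella are thus not independent of that choice. In BDCP against BCP cerebella, 0 of 10 members passed by edgeR's quasi-likelihood test and 0 by DESeq2, with 1 at an unadjusted p under 0.05 by each, where 0.205% of all genes were called. The median of the members was 0.02 on the log2 scale, and that of all genes 0.000952. Dgkh differed by -0.46 ± 0.15 (95% confidence interval -0.76 to -0.16, adjusted p = 0.213, edgeR). Mndal differed by -0.17 ± 0.56, Plac9a by 0.11 ± 0.30 and Catspere2 by -0.06 ± 0.16. Mndal, with both states in every P13 group of this background, had the widest error of the 10. Of the diacylglycerol kinase list, Dgki, a relative of Dgkh, fell by 0.39 ± 0.08 on the log2 scale (edgeR adjusted p = 0.00704) and was the only 1 of 10 called.

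In BPtchD against BPtch cerebella, 0 of 10 members passed by edgeR, and by DESeq2 0 of the 6 that had an adjusted p, with 3 at an unadjusted p under 0.05 by each, where 0.0956% of all genes were called. Dgkh differed by 0.48 ± 0.21 (95% confidence interval 0.07 to 0.90, adjusted p = 0.606, edgeR) and Catspere2 by 0.33 ± 0.15 (adjusted p = 0.611). Mndal differed by 0.01 ± 0.24 (95% confidence interval -0.45 to 0.48). Plac9a was at -0.11 ± 0.16 and Msh5 at -0.04 ± 0.14.

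Females with both Ddx3x copies floxed were compared with females with 1. The BD libraries of this comparison are also in the comparison with WT used by the choice of members. In the BD lines 0 of 10 members passed (edgeR and DESeq2, 0 at an unadjusted p under 0.05), where 1.55% of all genes were called. In the BDCP lines 0 passed as well (0 unadjusted by both tools), where 0.305% of all genes were called. Mndal differed by 0.27 ± 0.50 in the BD lines and 0.81 ± 0.73 in the BDCP lines. In the BPtchD lines 0 of 10 passed by edgeR and by DESeq2 (2 at an unadjusted p under 0.05), where 6.5% of all genes were called. Mndal differed there by -0.65 ± 0.31 (adjusted p = 0.15, edgeR) and Msh5 by -0.42 ± 0.18 (adjusted p = 0.114). Without the libraries that stand apart, Mndal was called at -0.80 ± 0.30 (edgeR adjusted p = 0.0432), a setting that called 21.7% of all genes. In the same comparison 12 of 14 interferon-response genes were higher (median 0.98), and of the other Ifi200 genes Ifi207 was called at +1.07.

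The most members were called between the Wnt-model implants. In the implants labelled BDCP-FLY, 9 of 10 members differed from BCP implants by edgeR, where 51.5% of all genes were called, a background against which the count says little. All 5 BCP implants share 1 series prefix in their titles, which none of the 10 labelled BDCP-FLY has (5 prefixes), so series and genotype cannot be told apart. Whether implants of a series share a donor tumour is not stated in the labels. Plac9, Tmem254 and Catspere2 fell, Dgkh, Mndal and Ifi203 rose, and Msh5 did not pass. The median of the members was -1.0 and that of all genes -0.000535 on the log2 scale. Ddx3x did not pass the test in these implants, but its counts cover the whole gene, so they do not show whether it was deleted. The part of Ddx3x in these differences was not tested.

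BCP implants held 12.4, 17.4, 10.4, 15.2 and 1.76 CPM of Plac9a, and the 10 labelled BDCP-FLY ran from 0.183 to 1.37 CPM (median 0.866). The groups did not overlap, though BCP replicate 5 lay close to the others. Plac9a fell by 3.99 ± 0.47 on the log2 scale (edgeR adjusted p = 9.37e-06). Plac9b fell by 3.84 ± 0.41 (edgeR adjusted p = 5.09e-06). Tmem254a held 9.78, 12, 5.24, 7.75 and 7.40 CPM in BCP against 1.83 to 7.08 (median 4.20), with overlap, and fell by 1.14 ± 0.27 (edgeR adjusted p = 0.00247).

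The other repeated genes of this locus were lower in the implants too. Of the chromosome 14 repeat list, which includes the 5 members, 9 of 9 genes tested were called, 8 lower and 1 higher (Anxa11, +0.89), with a median of -2.55 beside -0.000535 for all genes. Duxbl1, Duxbl2 and Duxbl3, copies of a double homeobox gene, fell by 2.73, 2.55 and 2.65 on the log2 scale. Of 15 genes that are no members tested within 500 kb, those of the list included, 6 rose and 5 fell.

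Dgkh held 4.54, 4.28, 5.83, 1.97 and 7.14 CPM in BCP implants and 10.4 to 20.4 CPM (median 15.5) in those labelled BDCP-FLY, with no overlap. It rose by 1.55 ± 0.28 (edgeR adjusted p = 0.000256). It was the only 1 of 10 diacylglycerol kinase genes called, and 0 of its 4 tested neighbours within 500 kb passed by edgeR. Catspere2 held 2.29, 1.95, 1.13, 5.05 and 2.02 CPM against 0.252 to 1.52 CPM (median 0.776), with overlap, and fell by 1.76 ± 0.41 (edgeR adjusted p = 0.00215). Of the 6 other CatSper genes tested 3 were called, Catsperg1 (-1.07), Catsperg2 (-0.94) and Catsperz (-2.36), a share near the 51.5% of all genes.

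Mndal held 10.7, 13.7, 5.54, 15.6 and 14.4 CPM in BCP implants and 18.3 to 47.2 CPM (median 25.3) in the others, with no overlap. Every implant was thus above the low P13 cerebella, and BCP replicate 3 lay below the high ones. It rose by 1.0 ± 0.24 (edgeR adjusted p = 0.00254). Ifi203 went from 15.9 to 32.4 CPM to 36.1 to 185 CPM and rose by 1.83 ± 0.32 (edgeR adjusted p = 0.000232). Of the Ifi200 list, 13 of 14 genes rose, with a median of 2.46, and 13 of 14 interferon-response genes rose, with a median of 3.13. The interferon-response genes summed to 382 to 874 CPM in BCP and 2415 to 8363 CPM in the others, without overlap. Mndal and Ifi203 thus rose by less than the median of either list.

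Other cell types moved with the implants as well. The 8 meningeal fibroblast markers summed to 163 to 5596 CPM (median 3093) in BCP implants and 133 to 2073 CPM (median 574) in those labelled BDCP-FLY, and none was at 0 in all libraries. The 6 microglia markers summed to a median of 578 against 327 CPM, and Mki67, a gene of dividing cells, had a median of 157 against 365 CPM. Their part in the members' differences was not tested. Of the mismatch repair list, 6 of 8 genes tested rose (median 0.74), among them Msh6 (+1.52), while Msh5 stood at 0.07 ± 0.18 (edgeR adjusted p = 0.767). Msh5 held 3.92 to 8.03 CPM in BCP implants and 5.06 to 8.48 CPM in the others, and these ranges overlapped.

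**Figure D5:**
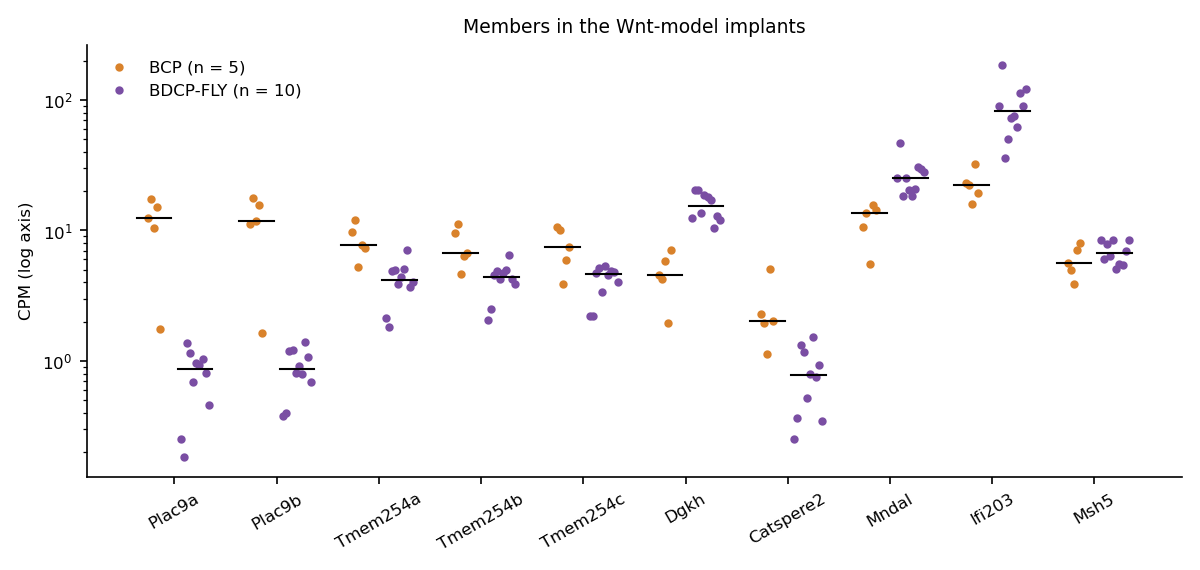
CPM of the 10 members on a log axis in the Wnt-model implants, BCP (n = 5) and those labelled BDCP-FLY (n = 10), with 1 point per library and a bar at the median. Plac9a and Plac9b are lower and Dgkh and Mndal higher in the BDCP-FLY group without overlap, while Msh5 overlaps. Levels are not per length and are not compared between genes.

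In the Shh-model tumours 0 of 10 members passed by edgeR (1 at an unadjusted p under 0.05) and 0 by DESeq2 (2 unadjusted), where 0.00544% of all genes were called. Plac9a differed between the floxed lines and BPtch by 0.87 ± 0.48 (edgeR adjusted p = 0.729) and Plac9b by 1.03 ± 0.45 (adjusted p = 0.66). BPtch tumours held 0.219 to 0.475 CPM of Plac9a and BPtchD-FLY tumours 0.496 to 1.60 CPM, without overlap between these groups. Mndal was high in all 15 tumours (34.3 to 98.1 CPM). BPtch P30+ cerebella held 3.11, 3.24, 39.6, 80.3 and 86.6 CPM of Mndal, and the last 3 are the libraries high in Mki67. Each of these 3 has the same number in its title as a BPtch tumour, and those tumours held 46.1, 84.0 and 39.3 CPM of Mndal, in the order of replicates 3, 4 and 5.

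Genes whose levels were most like those of the members were near them for Mndal, for the first of Catspere2 and for the first and last listed of Plac9a and Msh5. Those of Dgkh were on other chromosomes. Likeness was measured by Spearman rho over all cerebella, centred on the age mean, among 18318 genes. These share library, background and depth, and no test is given. Some also share transcript sequence with the member: Gm9780 with Plac9a, Catspere1 with Catspere2, and Ifi205 and Ifi211 with Mndal. For these, like levels and reads that match both genes cannot be told apart. For Plac9a they were Gm9780 (0.94), which lies between Plac9a and Plac9b, Gm14109 (0.51) and Duxbl2 (0.51). For Mndal they were Ifi205 (0.94), Ifi211 (0.91) and Ifi203-ps (0.86). Catspere2 was most like Catspere1 (0.86), Gm6356 (0.71) and Hmcn1 (0.71).

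Dgkh was most like Arfgef3 (0.85), Ptar1 (0.80) and Lnpep (0.79), and Msh5 most like Vars (0.75), Hnrnpl (0.72) and Ddx39b (0.70). Between members of different loci, rho was -0.73 for Catspere2 and Mndal, 0.57 for Tmem254a and Mndal and -0.22 for Dgkh and Mndal. Mndal and Catspere2 are 4.04 Mb or more apart on chromosome 1 and moved in opposite directions. Tmem254a and Dgkh, on 1 chromosome, had a rho of -0.24.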

How the data were processed

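The authors' deposited table holds raw counts per gene, whole numbers with no normalization and 1 column per labelled library. HISAT2, featureCounts and GRCm38 are named in the submitters' processing notes. Not given in the sources used here are versions, the strand setting and the handling of reads that match several genes. Per the labels' protocols, RNA came from flash-frozen tissue. Groups follow the labels of genotype, age and tissue. Symbols came from GENCODE M21 (31759 of 32075 identifiers matched). Levels are CPM of the library total.

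Counts were tested with edgeR 4.0.16 in R 4.3.3 (TMM, filterByExpr with a minimum count of 10, quasi-likelihood F-test, two-sided, all genotypes of a background together, age as a term). A gene is called where p, adjusted by Benjamini-Hochberg over every gene of the fit, is under 0.05. All 10 members passed the filter in every comparison. The standard error of a log2 fold change is its size divided by the root of F. Postnatal libraries of a group carry different numbers in their titles, but the labels do not say that these stand for separate animals. Embryos shared animal numbers. The p-values thus measure only the spread between these libraries. On simulated data for BDCP against BCP cerebella (20593 genes), 100 of 100 genes changed 2-fold and 100 of 100 changed 4-fold were recovered, with 7 false calls. The simulation gave every gene the same spread, with no on and off states, litters or batches. It therefore does not show what change could be called in members such as Mndal, whose standard error in the real comparison was 0.56.

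Other settings tried were no filter, DESeq2 1.42.0, edgeR with size factors from DESeq2, the replicate number as a block, each replicate left out, E16.5 left out, 1 mean per genotype and age, and libraries that stand apart left out. Leaving out WT P13 replicate 3 or the libraries low in cerebellum markers, the largest gap between ordered levels and the runs of title numbers were chosen after seeing the data. A percentile rule served only for the pairs over P5, P13 and P30+ and for the counts of low libraries in the closing section. By it, a library was low for a gene when its CPM was under 0.2 of the 90th percentile of its age, unless that was worth fewer than 3 counts.

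The members and gene lists were chosen with earlier results of these data known. The rule for other named genes takes the 3 genes most like Plac9a, Dgkh, Catspere2, Mndal and Msh5 (mean of at least 0.5 CPM, pseudocount 0.5), and genes of the lists or within 500 kb of a member that were called. Listed genes of the Ifi200, interferon-response, diacylglycerol kinase, CatSper, mismatch repair and chromosome 14 repeat lists were counted in each comparison. Tables and figures were made with version 1.17.8 of the R package for data tables, Python 3.11.15, numpy 2.4.6, pandas 2.3.3 and matplotlib 3.10.9.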

Additional observations from a re-analysis of the deposited data

Results flagged for a closer look

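In 480 pairs of a member and a group of 4 to 10 libraries, 32 held 1 library far from the others by Dixon's gap criterion (6.7%, where chance gives about 5%). Of these, 10 were in P13 cerebella and are given here with those in tumours. BD-FLY P13 replicate 2 was the lowest of its group in Plac9a (0.201 CPM) and the highest in Catspere2 (4.56 CPM). WT P13 replicate 2 was the highest in Mndal (31.3 CPM) and Ifi203 (34.6 CPM). BDCP-FLFL P13 replicate 3 was the highest in Plac9a (4.77 CPM), Plac9b (4.67 CPM), Tmem254b (17.9 CPM) and Tmem254c (15.4 CPM), and replicate 4 in Catspere2 (10.4 CPM). BPtchD-FLY P13 replicate 5 was the highest in Catspere2 (2.80 CPM). In tumours, Mndal was highest in BDCP-FLY implant replicate 2 (47.2 CPM) and lowest in BPtchD-FLY replicate 5 (34.3 CPM), and Plac9b was lowest in BPtchD-FLPlus replicate 1 (0.181 CPM).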

How the results depend on the processing

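Of the log2 fold changes of called members, 212 kept their call over the alternatives run, 15 lost it and none reversed. The number of members called was 0 under every alternative for BDCP against BCP, BPtchD against BPtch (cerebella and tumours) and FL-FL against FLPlus in the BD and BDCP lines. It was 1 for BPtchD-FLFL against BPtchD-FLPlus without libraries that stand apart (Mndal), and otherwise 0. Against WT, the count was 7 for the BD lines (3.23% of all genes called) and 8 for BPtch (18.5%) with 1 mean per genotype and age, 3 for BPtch by DESeq2 (10.9%) and 2 for BPtch without the libraries low in cerebellum markers (10.1%). It was 3 for the BD lines by DESeq2 (3.46%), without WT P13 replicate 3 (3.88%) and without the libraries low in cerebellum markers (2.39%), and 5 for BCP by DESeq2 (18.3%) and with 1 mean (17.6%). It was 2 for BCP without E16.5, where Tmem254a (-0.47, edgeR adjusted p = 0.110) and Tmem254c (-0.47, edgeR adjusted p = 0.147) lost their calls. With 1 replicate number left out it ran from 1 to 4 for BCP and from 1 to 2 for the BD lines. In cerebella, the number called low at 0.1 and 0.33 of the 90th percentile in place of 0.2 was 5 and 90 for Catspere2 (30), 3 and 46 for Dgkh (21), 1 and 29 for Msh5 (6), 17 and 61 for Plac9a (33), 14 and 71 for Plac9b (40), 0 and 35 for Tmem254a (2), 0 and 37 for Tmem254b (8), 0 and 34 for Tmem254c (4), 42 and 94 for Ifi203 (65) and 68 and 107 for Mndal (88). Summing the Tmem254 copies gave 4. The cause of these shifts was not tested, apart from the thresholds themselves. Of all genes, between 188 and 797 were called for the BD lines, 1850 and 4230 for BCP, 272 and 3705 for BPtch, 115 and 557 for BD-FL-FL, 21 and 66 for BDCP, 0 and 190 for BDCP-FLFL, 10 and 45 for BPtchD, 319 and 4839 for BPtchD-FLFL, 5194 and 10663 in the Wnt-model implants and 0 and 44 in the Shh-model tumours.

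Replicate numbers do not pair the libraries. Of 382 same-numbered pairs in 22 sets, 146 had a correlation of deviations over 0.1, and no set had all. In 83 of the 382 pairs the first library was closer to its partner than to any other library of the partner's group. With the replicate number as a block, 6 members in place of 9 were called in the Wnt-model implants. Tmem254a (-1.45, edgeR adjusted p = 0.0624), Tmem254b (-1.21, edgeR adjusted p = 0.0881) and Tmem254c (-1.25, edgeR adjusted p = 0.1) were not. The block changed no other member's call. The labels and titles of 5 implants labelled BDCP-FLY give different replicate numbers, and with the title numbers as the block, a setting chosen after seeing the data, 9 members were called (9255 of all genes). Of all genes it called 5194 in the implants, 20 for BDCP-FLFL and 0 in the Shh-model tumours (edgeR).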
